A study of Mus musculus with 2 samples.

Results

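A set of 10 liver genes that encode steroid hydroxylases, hydroxysteroid dehydrogenases and a steroid reductase was followed in Pgrmc1 KO and WT mouse liver: Cyp17a1, Hsd3b2, Hsd3b3, Hsd3b5, Hsd3b7, Hsd11b1, Hsd17b2, Hsd17b6, Hsd17b13 and Srd5a1. They were chosen by symbol, and all 10 were found among the 24054 genes of the deposited TPM table, where TPM is a gene's length-scaled share of the transcript pool. RNA of whole liver was measured in male C57BL/6 mice aged 8 to 12 weeks, either WT or Pgrmc1 -/Y (KO). The KO mice lack exons 1 and 2 of the X-linked Pgrmc1 gene in the whole body, after a floxed allele made in C57BL/6N embryonic stem cells was crossed to Sox2-Cre, which acts in the early embryo. RNA of 5 mice per genotype (2.5 μg each) was pooled and sequenced as 1 library, so mouse-to-mouse variation is unknown and the comparison of KO with WT rests on a pair of unreplicated libraries. The WT mice are not labelled as littermates or as Cre carriers.

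Most of these enzymes add or change single oxygen functions on steroids. The liver uses them to inactivate androgens, estrogens and glucocorticoids, to regenerate active glucocorticoid from its keto form, and to convert cholesterol to bile acids. Several of the genes differ between the livers of male and female mice. Pgrmc1 is a heme-binding membrane protein that associates with cytochromes P450, and of the genes described here Cyp17a1 alone encodes a P450. The others encode short-chain dehydrogenases, members of the Hsd3b family or a membrane-bound reductase, which draw on nicotinamide cofactors and hold no heme. The comparison asks whether the transcripts of these enzymes differed when Pgrmc1 was lost.

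Pgrmc1 itself was at 0.68 TPM in KO against 949.49 TPM in WT, so the libraries followed their labels. From the step between low values of the authors' means, 22086707 reads were estimated for KO and 29710376 for WT. Changes are log2((KO TPM + 1)/(WT TPM + 1)), which understates the change of low genes, and a gene was counted as up at a fold of at least 1.4 or down at a fold of at most 0.6 on that scale. On the log2 scale the limit for down lies further from no change than that for up, so counts up and down are not alike. A change is given with the 95% Clopper-Pearson interval of the ratio of the means (the authors' second table), from estimated reads, and a level with an exact Poisson interval. Both cover counting error only. The hepatocyte markers were high in both libraries, with Alb at 47241.8 TPM in KO against 49729.1 TPM in WT. Of 10 genes that mark steroid-producing glands, 9 had a mean under 1 TPM, among them Star (0.33 TPM in KO, 0.60 TPM in WT), and the exception was Cyp21a1 (3.76 and 2.52 TPM).

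None of the 10 genes passed the fold rule: 0 were up and 0 were down. Among all 11623 genes that averaged 1 TPM or more, 1.21% were up and 0.301% were down under these unequal limits. All 10 genes averaged 1 TPM or more, so none was left out by that minimum. The changes ran from -0.32 for Cyp17a1 to 0.19 for Hsd3b5, with 6 above 0, 4 below 0 and a median of 0.03, against -0.01 over all genes of at least 1 TPM. Their summed level was 2008.2 TPM in KO against 1975.68 TPM in WT, a ratio of 1.02. In bulk tissue, fewer cells that express a gene and less of its RNA per cell cannot be told apart.

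The 10 genes stood in the same order of level in both libraries. Hsd11b1 was the highest and Cyp17a1 the lowest, 104-fold apart in KO and 79.0-fold apart in WT. Between them came, from high to low, Hsd3b7, Hsd17b13, Hsd17b2, Hsd3b5, Hsd3b3, Hsd17b6, Srd5a1 and Hsd3b2. Hsd17b2 and Hsd3b5 were the only neighbours in this order whose 95% intervals of level overlapped, in KO as in WT. In KO, Hsd3b3 and Hsd17b6 stood only just apart, with a lower bound of 133.02 TPM for the first and an upper bound of 132.97 TPM for the second. Hsd11b1 and Hsd3b7 made up 23.1% and 21.7% of the summed level in KO, and 23.1% and 19.9% in WT.

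**Figure D1:**
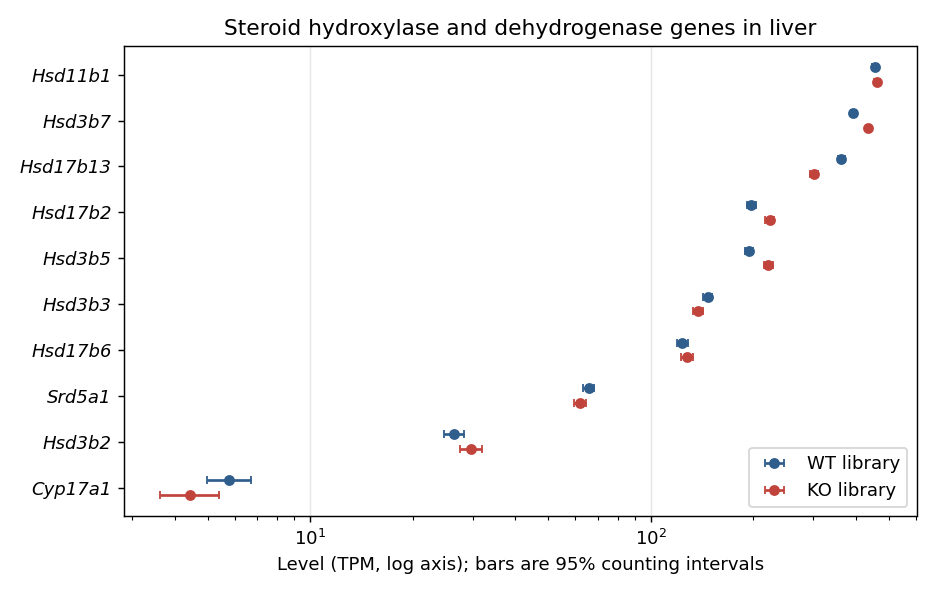
Level of each gene in the KO and WT library on a log axis in TPM; points are the values of the 2 pooled libraries and bars are exact Poisson 95% intervals from estimated reads. The order of the genes is the same in both libraries, from Hsd11b1 (463.02 TPM in KO, 456.38 TPM in WT) to Cyp17a1 (4.45 and 5.78 TPM).

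The Hsd3b genes lie together on the reverse strand of chromosome 3, except Hsd3b7 on chromosome 7. The enzymes of Hsd3b2 and Hsd3b3 oxidize the hydroxyl of steroids such as pregnenolone and shift the ring double bond, while Hsd3b5, a gene of male mouse liver, encodes an enzyme known as a ketosteroid reductase. The genes are so alike that a read can match several of them, and the authors' program divided such reads between genes by estimation. The first 100 coding bases are printed to show how alike they are, from the GENCODE transcripts of GRCm38 (mm10), with a capital wherever a gene differs from Hsd3b3.
Hsd3b3: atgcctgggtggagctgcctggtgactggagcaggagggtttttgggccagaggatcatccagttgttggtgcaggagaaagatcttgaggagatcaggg
Hsd3b2: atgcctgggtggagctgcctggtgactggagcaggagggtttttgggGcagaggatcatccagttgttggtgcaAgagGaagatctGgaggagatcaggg
Hsd3b6: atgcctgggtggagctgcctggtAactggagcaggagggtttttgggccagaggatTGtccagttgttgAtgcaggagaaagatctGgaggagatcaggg
Hsd3b5: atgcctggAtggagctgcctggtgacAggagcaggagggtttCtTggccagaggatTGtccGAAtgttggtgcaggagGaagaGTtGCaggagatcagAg
Hsd3b4: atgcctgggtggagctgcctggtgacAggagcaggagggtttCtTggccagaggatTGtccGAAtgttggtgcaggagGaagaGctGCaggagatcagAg
These stretches lie at chr3:98753356-98753455 (Hsd3b3), chr3:98716461-98716560 (Hsd3b2), chr3:98810947-98811046 (Hsd3b6), chr3:98630099-98630198 (Hsd3b5) and chr3:98509868-98509967 (Hsd3b4), all on the minus strand. Hsd3b2 differs from Hsd3b3 at 4 of the 100 bases and Hsd3b6 at 5, whereas Hsd3b5 differs at 15 and Hsd3b4 at 13. Hsd3b4 and Hsd3b5 differ from each other at 2. Over the whole coding sequence, Hsd3b2 and Hsd3b3 were 95.1% identical, Hsd3b4 and Hsd3b5 95.2%, and Hsd3b3 and Hsd3b5 79.7%. Hsd3b7 was 53.1% identical to Hsd3b3.

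Hsd3b5 (GRCm38 chromosome 3, 98618636 to 98645534) was at 221.72 TPM in KO against 194.72 TPM in WT, giving a log2 change of 0.19 (95% interval 0.15 to 0.26), the highest of the 10. Hsd3b3 (98741476 to 98764540) was at 137.97 TPM in KO against 147.27 TPM in WT, giving a log2 change of -0.09 (-0.14 to -0.0035). Hsd3b2 (98711107 to 98724543) was at 29.74 TPM in KO against 26.51 TPM in WT, giving a log2 change of 0.16 (0.031 to 0.33). The higher library was thus KO for Hsd3b5 and Hsd3b2 and WT for Hsd3b3, with no change as large as the fold rule. Hsd3b5 was 1.61 times as high as Hsd3b3 in KO and 1.32 times in WT. The ratio of Hsd3b5 to Hsd3b2 was 7.46 in KO and 7.35 in WT.

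Of the 100-base windows of Hsd3b3 transcripts, 12.1% also occur in transcripts of Hsd3b2 or Hsd3b6, and 6.17% of those of Hsd3b2 occur in other genes of the TPM table, mostly Hsd3b3. For Hsd3b5 the share was 7.79%, in Hsd3b4 and Gm10681. Summed over Hsd3b2, Hsd3b3 and Hsd3b6, the log2 change was -0.05, which is below 0 although Hsd3b2 alone was above it. Summed over Hsd3b5, Hsd3b4 and Gm10681 it was 0.19. The remaining genes of the cluster were low in both libraries: Hsd3b6 was at 0.04 TPM in KO against 0.07 TPM in WT, Hsd3b1 at 0.04 and 0.06 TPM, and Hsd3b4 at 0.27 and 0.25 TPM. Every 100-base window of Hsd3b4 occurs in another gene, so its level is uncertain. Hsd3b2 and Hsd3b3 also overlap exons of Zfp697 on the opposite strand, and the library kit keeps strand.

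**Figure D2:**
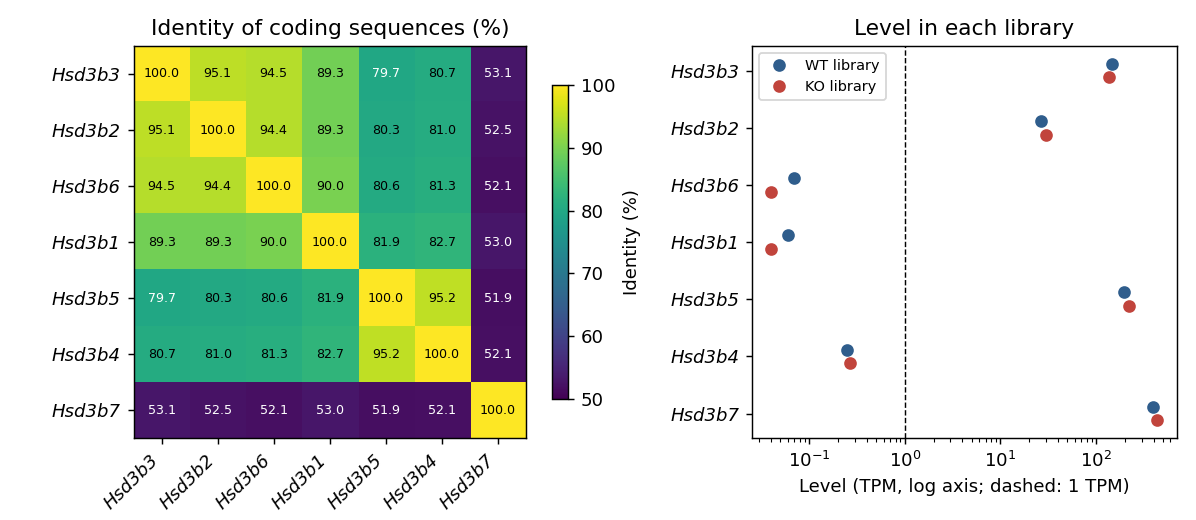
Left, identity of the coding sequences of 7 Hsd3b genes in percent; right, their level in TPM on a log axis in the KO and WT library, 1 point per pooled library, with a dashed line at 1 TPM. Hsd3b2, Hsd3b3, Hsd3b5 and Hsd3b7 lie at 26.51 TPM or higher in both libraries and Hsd3b1, Hsd3b4 and Hsd3b6 lie below 1 TPM, although Hsd3b6 is 94.5% identical to Hsd3b3.

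Hsd3b7 (chromosome 7, 127800609 to 127803802) encodes the dehydrogenase that acts on hydroxylated sterols early in bile acid synthesis. It was at 436.41 TPM in KO against 394 TPM in WT, giving a log2 change of 0.15 (95% interval 0.12 to 0.20, on 10142 and 12244 estimated reads). The KO library was the higher by 10.7% on the scale of TPM + 1. Of its 100-base windows, 61.6% also lie in the overlapping transcript Gm49388 on the same strand, which has no row in the TPM table, so reads of the 2 could not be separated here.

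Among the other 14 bile acid genes that averaged 1 TPM or more, 1 rose, 0 fell and the median log2 change was 0.03. The riser was Cyp7a1, the rate-limiting hydroxylase of the classic pathway, at 66.28 TPM in KO against 32.04 TPM in WT (log2 change 1.03, 0.99 to 1.13). The lowest was Cyp39a1, a sterol hydroxylase, at 11.37 and 14.66 TPM (-0.34, -0.53 to -0.19). Cyp8b1 of the same list came close to the limit for up, at 340.09 and 246.3 TPM (0.46, 0.44 to 0.52), a fold of 1.38. Of the 14 genes, 10 had a change above 0 and 4 below. Hsd3b7, which acts after Cyp7a1 in that pathway, was thus well below the fold of Cyp7a1.

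The Hsd17b genes spanned both signs. Hsd17b13 (chromosome 5, 103955442 to 103977388), which encodes a lipid droplet protein of hepatocytes, was at 301.57 TPM in KO against 363.72 TPM in WT. Its log2 change of -0.27 (95% interval -0.30 to -0.20, on 4742 and 7624 estimated reads) was the lowest of the 9 genes that averaged 10 TPM or more. It was 1.21-fold higher in WT, short of the rule, and 3.95% of all genes that averaged 10 TPM or more had a lower change. Its transcripts share no 100-base window with another gene.

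Hsd17b2 (chromosome 8, 117700982 to 117759030) encodes the enzyme that oxidizes testosterone and estradiol to their less active keto forms. It was at 223.6 TPM in KO against 197.62 TPM in WT, giving a log2 change of 0.18 (0.13 to 0.26). Hsd17b6 (chromosome 10, 127990931 to 128007648), a dehydrogenase close to the retinol dehydrogenases that oxidizes androstanediol, was at 127.66 TPM in KO against 123.94 TPM in WT, giving a log2 change of 0.04 (-0.020 to 0.14). The interval of Hsd17b6 held 0, so a difference was not detectable at this depth. Of its 100-base windows, 8.77% occur in Rdh1 and its neighbours.

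Hsd17b2 and Hsd17b13 have no shared windows, and their levels stood closer in KO than in WT. Hsd17b13 was 1.35 times as high as Hsd17b2 in KO and 1.84 times in WT. As shares of the summed level of the 10 genes, Hsd17b13 held 15.0% in KO and 18.4% in WT.

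Hsd11b1 (chromosome 1, 193221640 to 193264045) encodes the reductase that regenerates corticosterone in the endoplasmic reticulum. It was at 463.02 TPM in KO against 456.38 TPM in WT, giving a log2 change of 0.02 (-0.0052 to 0.081), so no difference was detectable on 7677 and 10101 estimated reads. H6pd, which supplies the NADPH for that reaction, was at 197.26 TPM in KO against 181.58 TPM in WT (0.12, 0.10 to 0.17). Hsd11b1 was 2.35 times as high as H6pd in KO and 2.51 times in WT. Hsd11b2, the enzyme of the opposite direction, was at 0.08 TPM in KO against 0.03 TPM in WT, and both values lie under 1 TPM.

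Srd5a1 (chromosome 13, 69573449 to 69611485), the reductase that converts testosterone to dihydrotestosterone and starts the clearance of other steroids, was at 62.06 TPM in KO against 65.74 TPM in WT. Its log2 change was -0.08 and its interval, -0.15 to 0.0093, held 0. Of its windows, 14.9% lie in Gm17108, an overlapping transcript on the same strand without a row in the table. Its relative Srd5a2 was far lower, at 2.18 TPM in KO against 1.41 TPM in WT (0.40, -0.34 to 1.69).

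Cyp17a1 (chromosome 19, 46667165 to 46673000) encodes the P450 that hydroxylates and then cleaves progestins on the way to androgens, a step best known from gonad and adrenal. It was at 4.45 TPM in KO against 5.78 TPM in WT, on 104 and 181 estimated reads, the fewest of the 10. Its log2 change of -0.32 was the lowest of the 10, and its 95% interval was also the widest, from -0.73 to -0.0099. When the pseudocount was 0.1 TPM the change was -0.37. Its transcripts share no window with another gene.

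Counting error alone therefore sorted the 10 genes as follows. The interval held 0 for Hsd11b1, Hsd17b6 and Srd5a1, lay above 0 for Hsd3b2, Hsd3b5, Hsd3b7 and Hsd17b2, and lay below 0 for Cyp17a1, Hsd3b3 and Hsd17b13. All 10 intervals lay inside the fold limits of 1.4 and 0.6, and 0 lay entirely past a fold of 1.2. With a fold of 1.2 as the limit, Hsd17b13 and Cyp17a1 were down and 0 were up, where 5.51% and 5.39% of all genes of at least 1 TPM were down and up. An interval that leaves out 0 says at most that the 2 pooled libraries differed beyond read counting, not that the genotypes did. It carries no error from dividing shared reads or from scaling the libraries. Of the intervals that left out 0, those of Hsd3b3 and Cyp17a1 came nearest to it, ending at -0.0035 and -0.0099.

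**Figure D3:**
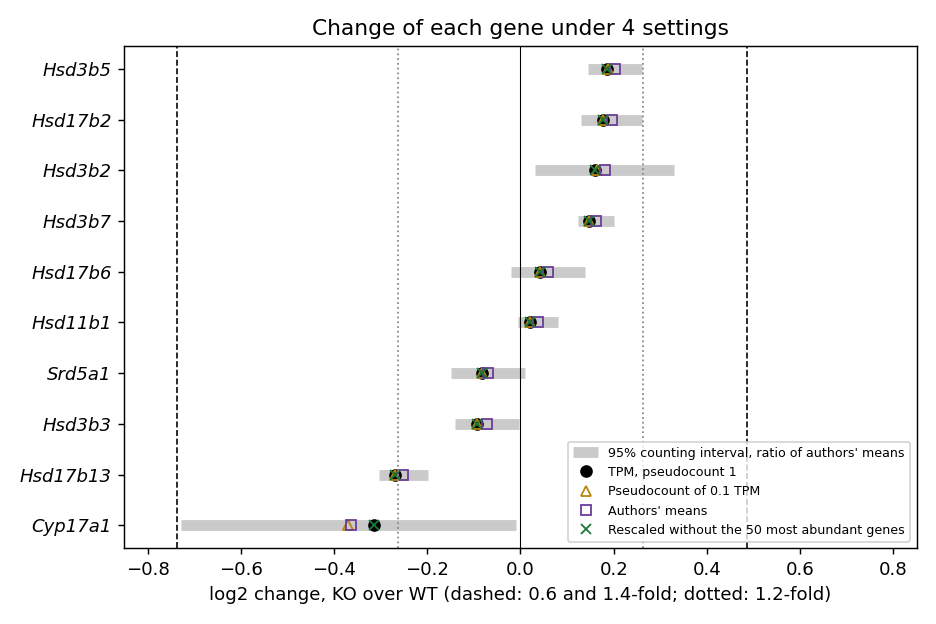
log2 change of each gene, KO over WT, under 4 settings (symbols), with the 95% counting interval around each ratio of means (grey bars); dashed lines mark folds of 0.6 and 1.4 and dotted lines a fold of 1.2. No bar reaches a dashed line, and the points of a gene lie close together, the widest spread being that of Cyp17a1.

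The changes of the 10 genes were then set against those of all genes. The central 90% of genes that averaged 10 TPM or more lay between -0.25 and 0.20, and 8 of the 10 genes lay in that range, with Hsd17b13 and Cyp17a1 below it. The median absolute change of the 10 was 0.15, against 0.09 over all genes of at least 1 TPM and 0.08 over those of at least 10 TPM. Higher changes than that of Hsd3b5 were found in 5.55% of genes that averaged 10 TPM or more, and changes lower than that of Cyp17a1 in 4.53% of genes with a mean of 1 to 10 TPM.

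**Figure D4:**
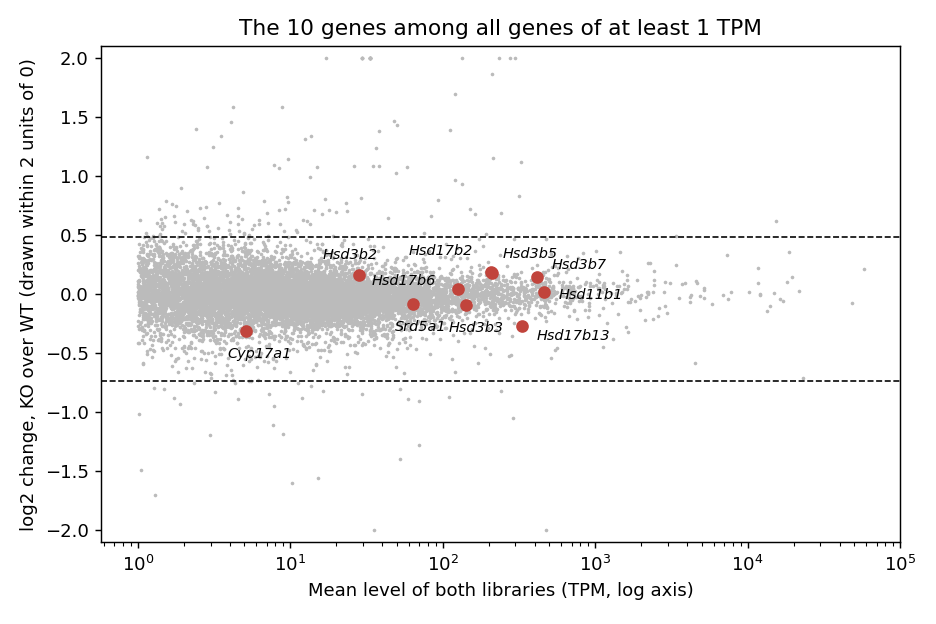
log2 change, KO over WT, against the mean level of the 2 libraries (TPM, log axis) for all genes of at least 1 TPM (grey; larger changes, Pgrmc1 among them, drawn at 2 units) with the 10 genes in red; Hsd17b2 and Hsd3b5 fall on the same point. All 10 lie between the dashed fold limits of 0.6 and 1.4.

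Related enzymes gave the same counts. Of 8 other hydroxysteroid dehydrogenases that averaged 1 TPM or more, 0 were up and 0 were down, and their median was -0.02. The highest log2 change was 0.09, for Hsdl2 (52.86 TPM in KO, 49.43 TPM in WT), and the lowest -0.30, for Hsdl1 (4.21 and 5.42 TPM). Hsd17b4, the multifunctional enzyme of peroxisomes, was at 266.12 TPM in KO against 266.62 TPM in WT. The cholesterol synthesis enzymes Hsd17b7 (33.39 and 37.61 TPM) and Nsdhl (56.87 and 57.46 TPM) had log2 changes of -0.17 and -0.01. Hsd17b10 was at 159.46 and 161.27 TPM, Hsd17b11 at 56.2 and 56.13 TPM and Hsd17b12 at 153.97 and 160.25 TPM.

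Of 7 retinol dehydrogenases and relatives near Hsd17b6 in sequence or family, 0 were up and 0 down, from -0.29 for Rdh9 (26.77 TPM in KO, 32.96 TPM in WT) to 0.26 for Rdh1 (3.93 and 3.12 TPM). Of 9 other steroid reductases, which include the aldo-keto reductases of the Akr1c family, 0 were up and 0 down. They ran from -0.22 for Srd5a3 (5.86 TPM in KO, 6.97 TPM in WT) to the 0.40 of Srd5a2 given above, which counted as up when the pseudocount was 0.1 TPM and in the authors' means. Their medians were 0.03 and 0.01.

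Of 9 donors that feed these enzymes and the P450s, 0 were up and 0 down, with a median of 0.01. Por, the reductase of microsomal P450s, was at 179.35 TPM in KO against 178.39 TPM in WT. Cyb5 was at 1678.54 and 1548.8 TPM (log2 change 0.12), Cyb5b at 227.18 and 226.08 TPM (0.01) and Cyb5r3 at 250.08 and 287.74 TPM (-0.20). The mitochondrial donors Fdx1 (109.42 and 113.71 TPM), Fdxr (12.39 and 13.55 TPM) and Fdx1l (23.24 and 22.5 TPM) had changes of -0.05, -0.12 and 0.04. G6pdx, the cytosolic source of NADPH, was the lowest at 2.96 TPM in KO against 5.18 TPM in WT (-0.64, -1.15 to -0.46), a fold of 0.641. It counted as down when the pseudocount was 0.1 TPM (a fold of 0.580) and in the authors' means (0.575).

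Some P450 genes that hydroxylate steroids passed the rule. Of 11 that averaged 1 TPM or more, 2 rose and 1 fell, and the median was 0.07. Cyp2b10, a target of the nuclear receptor CAR, was at 18.24 TPM in KO against 8.7 TPM in WT (0.99, 0.86 to 1.31), and Cyp3a11, a major Cyp3a enzyme of mouse liver that hydroxylates testosterone, was at 3952.15 and 2808.29 TPM (0.49, 0.49 to 0.52). Cyp2a4, which hydroxylates testosterone, was at 0.22 TPM in KO against 70.88 TPM in WT (-5.88, interval of the ratio -10.45 to -7.22). Cyp2a4 is a near-identical copy of Cyp2a5, so how reads were divided between them makes its level uncertain. Cyp2a5 was also lower in KO, at 135.95 TPM against 204.33 TPM in WT (-0.58, -0.64 to -0.51). The part of read division in the change of Cyp2a4 was not tested. The difference between the P450 genes and the 10 genes was not tested, because each genotype has 1 library.

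Of 12 conjugation genes that averaged 1 TPM or more, 1 rose, Ugt2b37 (4.18 TPM in KO, 2.51 TPM in WT; log2 change 0.56), and 0 fell. The lowest was Ugt2b5 at 814.46 and 891.88 TPM (-0.13), and the median was 0.00042.

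The steroid receptors and the carrier named here were inside the limits as well. Nr3c1, the glucocorticoid receptor, was at 35.42 TPM in KO against 36.47 TPM in WT, giving a log2 change of -0.04. Nr3c2, the mineralocorticoid receptor, was at 7.24 and 8.25 TPM (-0.17), and Esr1, the estrogen receptor of liver, at 11.3 and 9.28 TPM (0.26). Serpina6, the carrier of corticosteroids in plasma, was at 110.8 and 111.93 TPM (-0.01).

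Genes that glucocorticoids are known to induce were split. Of 12, 3 rose and 0 fell, while the median was -0.19 and 8 had a change below 0. Igfbp1 was at 294.54 TPM in KO against 132.17 TPM in WT (1.15, 1.11 to 1.23), Sgk1 at 29.63 and 16.91 TPM (0.77, 0.68 to 0.96) and Pdk4 at 6.43 and 4.26 TPM (0.50, 0.36 to 0.85). The lowest was Fkbp5, a chaperone of the glucocorticoid receptor, at 34.86 and 50.62 TPM (-0.53, -0.61 to -0.44). Fkbp5 was 1.44-fold higher in WT, a larger step than the 1.41-fold rise of Pdk4, yet not past the limit for down. Igfbp1 and Pdk4 also respond to fasting and insulin, so the list does not read glucocorticoid alone. Hsd11b1 and Nr3c1, beside these values, had changes of 0.02 and -0.04.

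**Figure D5:**
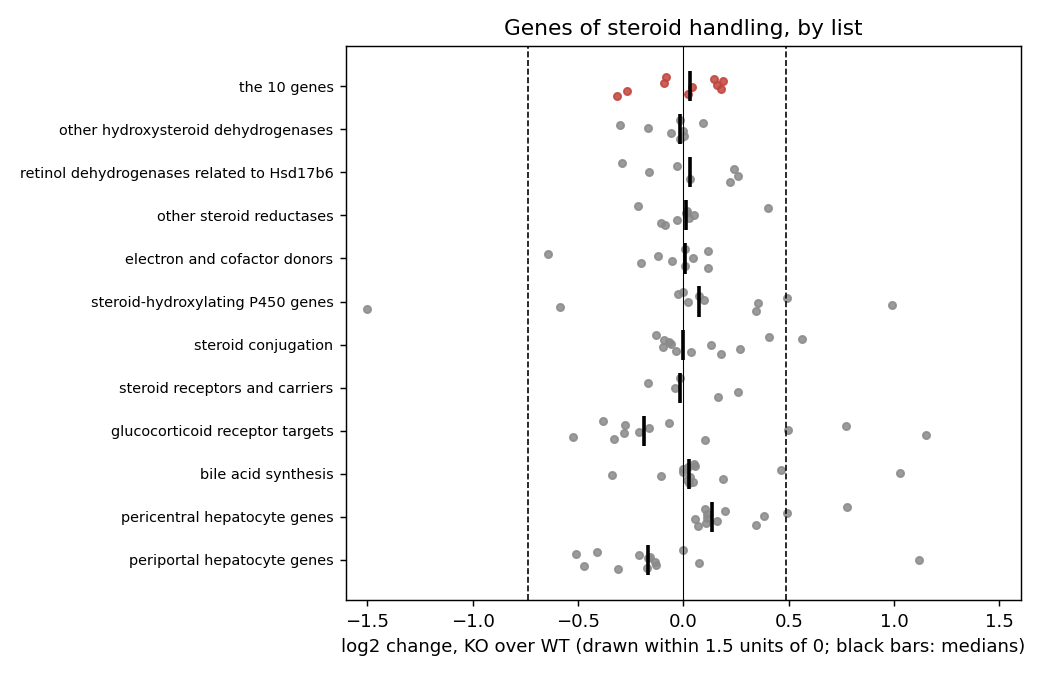
log2 change, KO over WT, of the genes that averaged 1 TPM or more in each list (1 point per gene, black bar for the median, dashed lines at folds of 0.6 and 1.4; Cyp2a4 is drawn at 1.5 units below 0). The 10 genes, in red, lie inside the limits, as do, with the pseudocount of 1 TPM drawn here, the related dehydrogenases, the reductases and the donors, whereas single genes of the P450, conjugation, glucocorticoid, bile acid and zonation lists lie outside.

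Genes that differ between male and female mouse liver were compared because Hsd3b5 is one of them. Of 14 male-biased genes, 1 rose and 0 fell, with a median of -0.01. Moxd1 rose (6.42 TPM in KO, 1.71 TPM in WT; 1.45), and Mup20, the lowest, was at 17437.6 and 28502.6 TPM (-0.71), a fold of 0.612. Of 19 female-biased genes, 5 had a mean of at least 1 TPM. Of these, Cyp2c69 rose (13.66 and 3.9 TPM, log2 change 1.58) and Cyp2a4 fell, as given above. Changes were above 0 for 3 of the 5 and below 0 for 2, with a median of 0.37. With no minimum, the median over the 19 was 0.03. With a minimum of 10 TPM it was -2.75, with Cyp2a4 among the genes left, so its sign depended on the minimum. The summed level of the 19 was 61.57 TPM in KO against 113.83 TPM in WT, of which Cyp2a4 gave 0.22 and 70.88 TPM. Of 8 genes of growth hormone signalling, which sets this sex difference, Socs2 (17.97 and 10.58 TPM; 0.71) and Bcl6 (22.55 and 13.4 TPM; 0.71) rose and Cish (3.78 and 6.98 TPM; -0.74) fell. Cish, at a fold of 0.599, was no longer past the rule after centring on the median gene. The change of Hsd3b5 was 0.19 beside these.

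Markers of position in the liver lobule differed in part between the libraries, as did those of other liver cells. Of 12 genes of pericentral hepatocytes, 2 rose, Tbx3 (12.52 TPM in KO, 6.9 TPM in WT; 0.78) and Rhbg (8.52 and 5.76 TPM; 0.49), and all 12 changes were above 0, the lowest being that of Gulo at 0.05, with a median of 0.14. Of 13 genes of periportal hepatocytes, 1 rose, G6pc (445.52 and 204.76 TPM; 1.12), and 0 fell. Their median was -0.17 and the lowest was Sds (168.08 and 239.35 TPM; -0.51). The summed level of the pericentral list was 6911.28 TPM in KO against 6309.41 TPM in WT, and that of the periportal list 7709.63 and 8522.45 TPM.

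Among other cells, 0 markers of Kupffer cells, stellate cells, endothelial cells or cholangiocytes that averaged 1 TPM or more passed the rule. Lyve1, Rgs5 and Epcam, at folds of 0.658, 0.693 and 0.665, were past 1/1.4 but not past 0.6. All 9 Kupffer cell markers were higher in KO, from 0.10 for Vsig4 to 0.24 for C1qa, with a median of 0.17 and summed levels of 368.93 TPM in KO against 325.1 TPM in WT. All 8 endothelial markers were lower in KO, from -0.60 for Lyve1 to -0.03 for Bmp2, with summed levels of 169.05 and 186 TPM. The 8 stellate markers ran from -0.53 for Rgs5 to 0.17 for Lrat (198.58 and 224.82 TPM in sum), and the 4 cholangiocyte markers from -0.59 for Epcam to 0.01 for Krt19 (62.04 and 66.96 TPM in sum). Epcam (0.67 TPM in KO, 1.51 TPM in WT) counted as down when the pseudocount was 0.1 TPM (a fold of 0.478) and in the authors' means (0.445). The 9 hepatocyte markers ran from -0.32 for Tdo2 to 0.09 for Fgb, with 0 past the rule, and 0 of 6 lymphocyte markers averaged 1 TPM over the libraries, although Nkg7 was at 0.11 TPM in KO against 1.08 TPM in WT. The part of these shifts in the changes of the 10 genes was not tested.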

How the data were processed

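Liver RNA of Pgrmc1 KO and WT mice was sequenced as 1 pooled library per genotype (Illumina TruSeq Stranded Total RNA kit). Per the labels and the paper's methods, the authors used CASAVA 1.8.2, aligned reads to mm10 with Bowtie and estimated levels with RSEM 1.2.09, which apportions multiply matching reads by estimation. The authors deposited posterior mean TPM for 24054 genes, with column sums of 1005325 (KO) and 994702 (WT). They also deposited, from EBSeq, a signal for 16318 genes (for each library, a mean that equals estimated reads over a size factor); its columns are named by condition number and were matched to genotype by the order in the table's name and by the study's heading for them. Its columns of fold, probability and posterior fold hold the authors' own comparison and were not used.

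TPM keeps no depth. The most frequent value of the authors' means, 1.16 in KO and 0.860 in WT, was taken as 1 read. Within a tolerance of 0.02, 78.6% of KO and 75.0% of WT values were then whole, so no count test was run. As genotypes were unreplicated, no test of significance was made. Changes used a pseudocount of 1 TPM and a minimum mean of 1 TPM. The folds of 1.4 and 0.6 are those of the study, applied to TPM + 1 without its probability.

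The genes and the 22 other gene lists were chosen with earlier results of these data known. Named from the lists were all genes past the fold rule, the highest and lowest of each, and all receptors, donors and other hydroxysteroid dehydrogenases, each with a mean of at least 1 TPM; 1 listed gene is not reported here. Of the symbols listed, Hsd17b8, Rdh16f2 and Sts matched none in the table, and 3 matched by an older name. Other names (Hsd11b2 and the low Hsd3b genes, Cyp2a5, Cyp8b1, Star, Alb) were chosen after their values were seen. Positions are those of RefSeq genes on GRCm38; shared windows and coding identity are from GENCODE transcripts of that assembly. The calls and intervals were run on reads simulated with counting error alone. Such reads cannot test them against mouse-to-mouse spread or the division of shared reads. Python 3.11.15, numpy 2.4.6, pandas 2.3.3, scipy 1.17.1, Biopython 1.88 and matplotlib 3.10.9 were used. Alternatives were another pseudocount, the authors' means, centring, rescaling without the 50 most abundant genes, other minimums and folds, sums over Hsd3b genes, and leaving out each gene from the median.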

Additional observations from a re-analysis of the deposited data

How the results depend on the processing

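No paired analysis was possible because the design holds a single KO library and a single WT library, and for the same reason none could be left out. Depth limits Cyp17a1 most, and mouse-to-mouse spread was not measured at all. Of 46 alternative values of the changes of the 10 genes, 43 moved by less than the distance from the middle to the end of the gene's counting interval. The 3 that moved were sums over Hsd3b genes: over Hsd3b2, Hsd3b3, Hsd3b4, Hsd3b5 and Hsd3b6 the log2 change was 0.0794, where Hsd3b3 alone had -0.09 and Hsd3b5 alone 0.19, and over Hsd3b2, Hsd3b3 and Hsd3b6, a sum chosen after seeing the data, it was -0.0512, where Hsd3b2 alone had 0.16. The median of the 10 ran from 0.02 to 0.05 over all its alternatives. The counts of 0 up and 0 down held under each alternative except a fold of 1.2, which gave 2 down. Over the genes of all other lists, 14 were up and 2 down. The count down was 4 with a pseudocount of 0.1 TPM, 4 with the authors' means, 4 with no minimum, 1 after centring and 10 with limits of 1.4 and 1/1.4. The genes added under the first and the second of these were G6pdx and Epcam, the gene lost after centring was Cish, and Acot3, Cyp21a1, Lgr5 and Srd5a2 were up under the first and the second (Acot3 also after centring) but not as reported. With a minimum of 10 TPM the counts were 8 up and 1 down, with a fold of 1.2 they were 24 up and 22 down, and with a fold of 2 they were 5 up and 1 down. Of 125 alternative list medians, 120 moved by no more than the distance from middle to end of their middle genes' intervals. A change of sign was seen in 10 of the 125. The 5 that moved were of female-biased genes (no minimum and 10 TPM), glucocorticoid targets (10 TPM) and hepatocyte markers (authors' means and centring). Centring sets the median of all genes to 0 by construction, so that median says nothing about scaling. Rescaling without the 50 most abundant genes moved it from -0.01318 to -0.01307 on the log2 scale.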
